A study of Mus musculus with 6 samples.

Results

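The genes described here were *Pde4d*, *Bdh1*, *Srpk2*, *Slc17a5*, *Trpc6* and *Slc15a2*, 6 genes that the study lists with an intracisternal A particle (IAP) element in an intron. All rows of the splicing array table under these symbols were taken, which gave 13 events and 29 paths of 13002 events and 26514 paths in 7788 genes. Intensities were listed for 12948 of all events, and for each of the 13. *Slc17a5*, *Trpc6* and *Slc15a2* were brought up by these arrays, and *Pde4d*, *Bdh1* and *Srpk2* were picked with their array values known. Their isoform ratios are therefore a description, and no test was made of them.

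Total brain RNA of a B6.CAST congenic mouse line was hybridized to Affymetrix MJAY arrays, whose probe sets cover the exons and exon junctions that tell the paths of an alternative RNA event apart. The 6 animals formed 3 same-sex littermate pairs, 3 mice homozygous for the *Nxf1* B6 allele and 3 homozygous for the *Nxf1* CAST allele. Of the 2 female pairs 1 was aged 46 days and 1 was aged 23 days, and the male littermates were labelled as 22 days (*Nxf1* B6) and 23 days (*Nxf1* CAST). The line is congenic, so that outside the introduced interval both groups share the C57BL/6J background with its IAP insertions, and the CAST interval on chromosome 19 holds other genes besides *Nxf1*. None of the members' events lay on that chromosome (0 of 13).

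The deposited intensities were pooled into 1 value per path for a set A and 1 for a set B. Neither set is named by genotype in the table. Its header defines a score as mutant over wild type and speaks of controls compared with experiments, which makes set B likely the *Nxf1* CAST set. With no intensity per array, no SD and no p-value could be computed here for the differences below, the q-values of the authors' own comparisons were not used, and the small number of arrays limits their precision. Markers of neurons, astrocytes and oligodendrocytes were bright in both sets. For sets A and B, the summed intensities were 73613 and 71330 for neurons (11 events of 6 genes) and 40249 and 41546 for astrocytes (9 events of 6 genes). For oligodendrocytes (9 events of 4 genes) they were 53104 and 51488. Microglial markers (5 events of 3 genes) summed to 2395 and 2440 and endothelial markers (6 events of 2 genes) to 3389 and 3197. The sums run over unlike numbers of events and count a gene once per event, so they cannot be compared between cell types. The median log2 change of a marker list lay between -0.11 for endothelium and 0.09 for astrocytes, and the part of these shifts in the results below was not tested. The liver genes listed for absence had no event in the table, so they were not measured and absence of liver RNA was not checked.

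IAPs are endogenous retroviral elements of the mouse that still move by copying their RNA into new places of the genome. An IAP in the sense orientation within an intron can offer splice sites and a polyadenylation signal, so that some transcripts of the host gene run into the element and end there or skip to the next exon by another route. Nxf1 is the principal export receptor for mRNA, and the CAST allele is known as a modifier of mutations caused by such insertions. By the study's classes, the element of *Pde4d* is full length, those of *Trpc6* and *Slc15a2* belong to a common class with an internal deletion, and that of *Bdh1* is a solitary long terminal repeat. No class was listed for *Srpk2* and *Slc17a5*. The positions of the insertions were not analysed here, so whether an event spans the intron with the element cannot be read from these values.

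Primers for all 6 genes were given with the study, 16 in all and 19 to 26 bases long. Those of *Slc17a5* and *Trpc6* are shown because their gel assays carry the names of the array events described below, which ties a sequence to the measured choice. Each gel assay had 3 primers, and all are written from the 5' end. The capitals in the *Trpc6* primers mark 8 bases found both in the last gel primer and at the 3' end of a qRT-PCR primer.
Slc17a5 gel primer 1: atttcctatgcgggagcac
Slc17a5 gel primer 2: accttctgcgaagaaagctg
Slc17a5 gel primer 3: tttgaagtttttcttaagccttttct
Trpc6 gel primer 1: ttagcaatgagctggcagtg
Trpc6 gel primer 2: gctctttccagcttggcata
Trpc6 gel primer 3: TGCTGACAgtttggatgagc
Trpc6 qRT-PCR primer 1: tgaatggggatgcagagact
Trpc6 qRT-PCR primer 2: gacaggagctgtTGCTGACA

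For each event, the log2 ratio of exclusion to inclusion intensity in set A was subtracted from that in set B. A value above 0 means relatively more of the exclusion path in set B, and 0.5 was taken as the threshold. The paths are named only as skipped and included. Which transcript form the exclusion path of a start, end or complex event stands for is therefore not known here. Between events, a shared or opposite sign need not be a shared or opposite change of transcript form. The study's methods apply that size to a separation score of their own, a ratio of the same kind whose deposited values were not used here, so being past or short of 0.5 below refers to the ratio of pooled intensities alone. By this measure 4 of the 6 genes had an event past the threshold, against 11.7% of all genes. Over events the count was 4 of 13, against 7.34% of all events. The share over genes rises with the number of events, from 8.01% of genes with 1 event to 14.4% with 2 and 24.3% with 4, and *Pde4d* and *Srpk2* had 4 events, *Bdh1* 2 and each of the others 1. Since these genes were chosen with such values known, nothing is read from the counts. The median absolute difference was 0.24 over the 13 events and 0.18 over all events. Just inside the threshold were an alternative start of *Srpk2* and a complex event of *Bdh1*, both at 0.53, and just outside it was a complex event of *Pde4d* at -0.42.

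**Figure D1:**
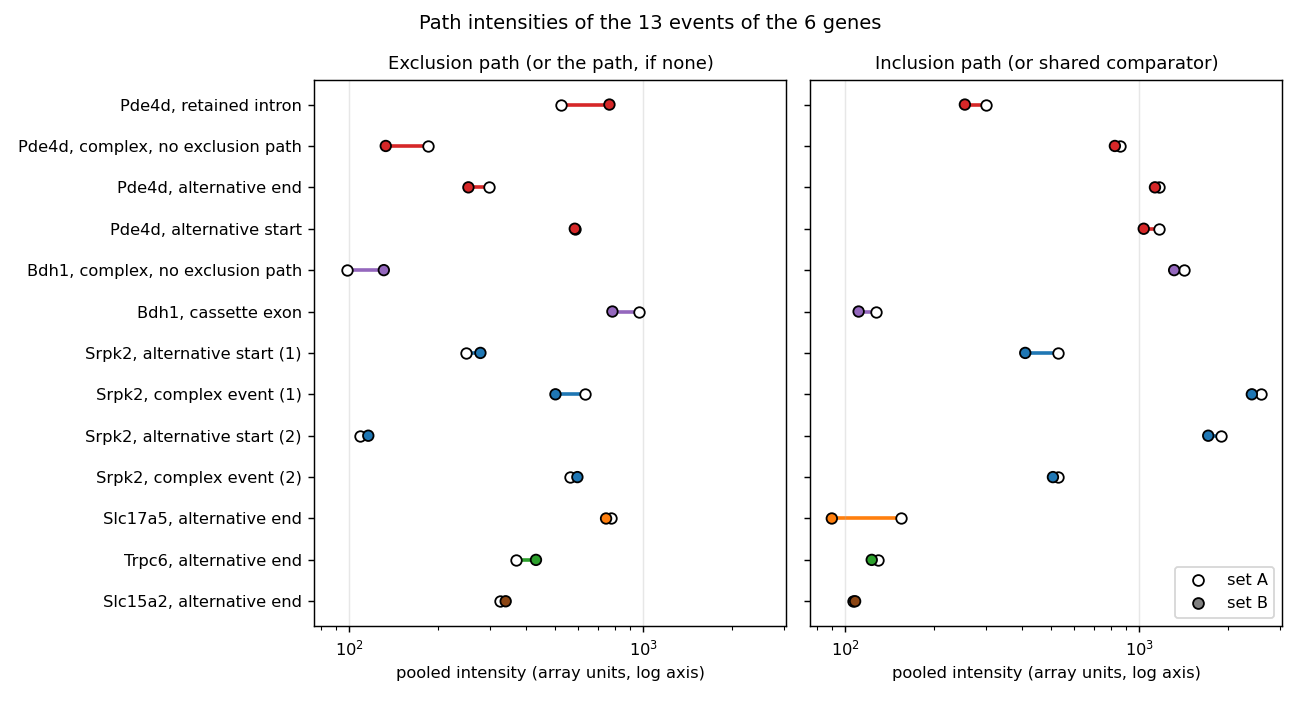
Pooled intensities of the 13 events in set A (open points) and set B (filled points), on a log axis in array units, with 1 row per event and a colour per gene. The left panel shows the exclusion path, or the leading path where an event has none, and the right panel the inclusion path or shared comparator. The longest line in the right panel is that of *Slc17a5*, from 155 to 90, and in the left panel *Pde4d* runs from 526 to 766.

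*Pde4d* encodes a phosphodiesterase that breaks down cyclic AMP, and its many promoters and splice forms give long and short isoforms of the enzyme. Its largest difference was in a retained intron at chr13:110693698-110693784 on the plus strand, 87 bases by the positions of the table, which names no genome build. The exclusion intensity, that of the spliced form, went from 526 in set A to 766 in set B. The inclusion intensity, that of the form with the intron, was 301 and 255. The spliced form was thus brighter and the retained form dimmer in set B, and the isoform ratio differed by 0.78 on the log2 scale, or 1.72-fold. Of the difference, the exclusion path gave 0.54 and the inclusion path -0.24. It ranked 125 of 12948 by absolute size over all events and 13 of 1064 among retained introns, of which 9.87% were past the threshold in either direction and 6.48% toward more exclusion. An interval of this length is shorter than a single long terminal repeat of an IAP, so the interval itself cannot hold the element.

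The other events of *Pde4d* were smaller, and they share exons with each other and with the intron. An alternative start (chr13:110693784-110724075) begins at the base where the retained intron ends. Its exclusion intensity was 584 in both sets, its inclusion intensity 1168 and 1034, and its isoform ratio differed by 0.18. An alternative end (chr13:110562888-110741682), whose span contains both, had exclusion intensities of 298 and 254 and inclusion intensities of 1164 and 1129, a difference of -0.19. The differences of the start and the end thus had opposite signs, and each had about the median size of all events (0.18).

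The remaining *Pde4d* event, a complex event without an exclusion path (chr13:109444298-110741682), sets 4 paths against a shared comparator of 859 and 825 in sets A and B. The path intensities were 134 and 141, 185 and 133, 459 and 404, and 222 and 210 for sets A and B. Most of the movement was in the second path, which changed by -0.48 on the log2 scale, while the other 3 changed by 0.07, -0.18 and -0.08. Relative to the comparator the second path differed by -0.42, rank 1629. The sum over the 4 paths was 1000 in set A against 888 in set B.

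*Srpk2* encodes a kinase that phosphorylates the serine and arginine rich proteins of the splicing machinery. An alternative start (chr5:23181592-23182266, minus strand, 675 bases) had exclusion intensities of 249 and 279 and inclusion intensities of 527 and 409. The inclusion path was the one that moved more, at -0.37 against 0.16 for the exclusion path. The isoform ratio differed by 0.53, or 1.44-fold, rank 773 over all events and 108 of 2248 alternative starts, of which 6.32% were past the threshold in either direction and 3.47% toward more exclusion. This value sits close to the threshold: with the median difference of all exclusion-path events (0.03) subtracted it was 0.50, just under it, and after adding 50 to each intensity it was 0.47.

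A complex event of *Srpk2* (chr5:23071083-23181592) shares the boundary at position 23181592 with this start event. From set A to set B its exclusion intensity went from 635 to 502 and its inclusion intensity from 2589 to 2410, a difference of -0.24, among complex events of which 8.38% were past the threshold in either direction and 5.91% toward more exclusion. A longer alternative start (chr5:23122208-23190435) contains the shorter one and had exclusion intensities of 109 and 116 and inclusion intensities of 1892 and 1713, a difference of 0.23. The differences of the *Srpk2* starts thus had the same sign at unequal sizes, and that of the neighbouring complex event had the opposite sign. A second complex event (chr5:23032633-23033741), with exclusion intensities of 564 and 596 and inclusion intensities of 528 and 508, differed by 0.14, below the median size of all events.

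RefSeq lists 3 starts for *Srpk2*, and the promoters of the 2 most upstream are shown because the leading event of this gene is a choice of start. Each window runs from 250 bases before the start to 50 after it, on the minus strand of chromosome 5 in GRCm38.p6. The starts lie 493 bases apart. The gene's array positions fall outside its GRCm38.p6 span, so the table follows another build and neither promoter was matched to a path. Capitals mark GGGCGG, or CCGCCC where it lies on the other strand, a motif found in 35.7% of the 32851 RefSeq promoters of this length.
Srpk2 chr5:23676411-23676710: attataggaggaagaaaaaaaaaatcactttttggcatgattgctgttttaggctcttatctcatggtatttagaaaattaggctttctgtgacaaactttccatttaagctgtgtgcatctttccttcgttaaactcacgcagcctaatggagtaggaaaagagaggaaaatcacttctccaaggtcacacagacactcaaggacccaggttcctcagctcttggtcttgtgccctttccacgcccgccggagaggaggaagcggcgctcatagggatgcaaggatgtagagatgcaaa
Srpk2 chr5:23675918-23676217: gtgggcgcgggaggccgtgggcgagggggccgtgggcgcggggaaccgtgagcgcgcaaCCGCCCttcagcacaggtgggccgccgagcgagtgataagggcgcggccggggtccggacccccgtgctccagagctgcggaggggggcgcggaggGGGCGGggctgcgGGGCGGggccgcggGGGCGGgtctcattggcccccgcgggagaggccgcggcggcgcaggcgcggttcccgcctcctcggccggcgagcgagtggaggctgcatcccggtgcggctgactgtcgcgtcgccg

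The second window held 47 CpG dinucleotides, 4 matches of the motif and 80.3% GC, and the first held 7 CpG, no match of these letters and 44.3% GC. The median over all promoters was 7 CpG, and 98.6% of them had fewer than 47. The *Srpk2* starts listed in RefSeq thus differ widely in base composition.

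*Slc17a5* encodes sialin, the carrier that exports free sialic acid from lysosomes. Its single event was an alternative end (chr9:78384315-78418828, minus strand, 34514 bases). Exclusion was measured at 775 and 746 in sets A and B, and inclusion at 155 and 90. The bright path was nearly level between the sets, at -0.06 on the log2 scale, and the dim path changed by -0.78. The isoform ratio differed by 0.73, or 1.66-fold, which ranked 174 over all events and 8 of 2522 alternative ends. Alternative ends moved least of the types shown, with 2.78% past the threshold in either direction, 1.63% toward more exclusion and a median absolute difference of 0.14. The event rests on a dim path: after adding 50 to each intensity its difference was 0.50, just under the threshold. The paper reports that this event could not be replicated in its follow-up assays.

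*Trpc6*, which encodes a cation channel of the plasma membrane that opens on diacylglycerol, also had 1 event, an alternative end (chr9:8626775-8680741, plus strand, 53967 bases). Its exclusion intensity was 370 and 431 and its inclusion intensity 129 and 123 in sets A and B. Its paths moved by 0.22 and -0.07, and the isoform ratio differed by 0.29. This was above the median size of alternative ends (0.14) but short of the threshold, rank 3580 over all events and 422 of 2522 in its type.

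*Slc15a2* encodes a proton-coupled carrier of small peptides, known in brain from the choroid plexus and astrocytes. Its only event was an alternative end (chr16:36750280-36772149, minus strand, 21870 bases), with exclusion intensities of 326 and 340 and inclusion intensities of 106 and 108. Both paths were nearly level between the sets, and the difference of 0.03 ranked 11630 of 12948. The alternative ends of *Slc17a5*, *Trpc6* and *Slc15a2* thus differed by 0.73, 0.29 and 0.03, and that of *Pde4d* had the opposite sign. The *Slc15a2* value was about the median of all exclusion-path events (0.03). With that median subtracted it was 0.000124, which leaves it no direction by this measure. The paper lists these genes among the sites that passed its own array criteria. It reports that *Slc15a2* and *Trpc6* replicated by qRT-PCR, or by qRT-PCR and gel, and that *Slc17a5* did not. The qRT-PCR assays measured the level of the correctly spliced junction relative to reference genes, and the paper describes its gene-specific assays as made on additional samples. That level is not a ratio of exclusion to inclusion. The order of the differences given here is therefore not set against the outcome of those assays.

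**Figure D2:**
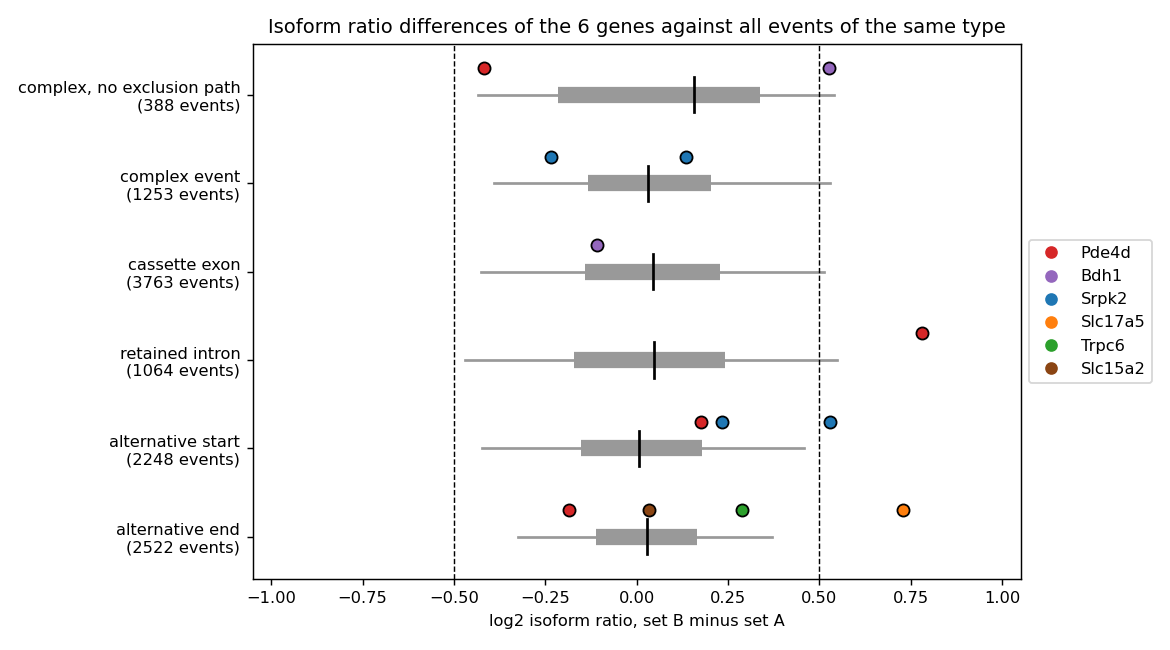
Differences in log2 isoform ratio, set B minus set A, of the 13 events (coloured points, 1 colour per gene) above the spread of all events of the same type. Black ticks are medians, thick grey bars run from percentile 25 to 75 and thin lines from 5 to 95, and dashed lines mark 0.5 on either side. The *Pde4d* retained intron (0.78) and the *Slc17a5* alternative end (0.73) lie farthest to the right.

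*Bdh1* encodes the mitochondrial 3-hydroxybutyrate dehydrogenase, which interconverts the ketone bodies hydroxybutyrate and acetoacetate. Its leading event was a complex event without an exclusion path (chr16:31422379-31438077, plus strand, 15699 bases), with a shared comparator of 1414 and 1312 in sets A and B. Its 3 paths had intensities of 98 and 131, 753 and 675, and 266 and 340. The main path was thus dimmer in set B, by -0.16, and the minor ones brighter, by 0.42 and 0.35, while the sum of the paths was 1117 and 1146. Relative to the comparator the first path differed by 0.53, rank 793 over all events and 31 of 388 in its type, of which 10.6% were past the threshold. That path is among the dimmest of the members, and after adding 50 to each intensity its difference was 0.41.

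Downstream of it lay a cassette exon of *Bdh1* (chr16:31438203-31446677). From set A to set B its exclusion intensity went from 968 to 784 and its inclusion intensity from 127 to 111. Both paths were dimmer in set B, so the isoform ratio differed by only -0.11 while the total intensity changed by -0.29, the lowest of the 13 events. Of all cassette exons 8.56% were past the threshold in either direction and 5.55% toward more exclusion.

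Of the 11 events with an exclusion path, 8 differed toward more exclusion in set B and 3 toward less. Among all such events 55.3% differed toward more exclusion, at any size. The 3 past the threshold all differed toward more exclusion. Of all events with an exclusion path, 4.51% were past it that way and 2.72% the other way. The genes were chosen with array values known, and events of *Pde4d* and of *Srpk2* overlap. The 3 are a retained intron, an alternative start and an alternative end, for which exclusion need not mean the same change of transcript form. No shared direction is therefore read from these counts. In 4 of the 11 the inclusion path moved more than the exclusion path, among them *Slc17a5* and the leading *Srpk2* start, whereas in the *Pde4d* intron and in *Trpc6* the exclusion path moved more.

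**Figure D3:**
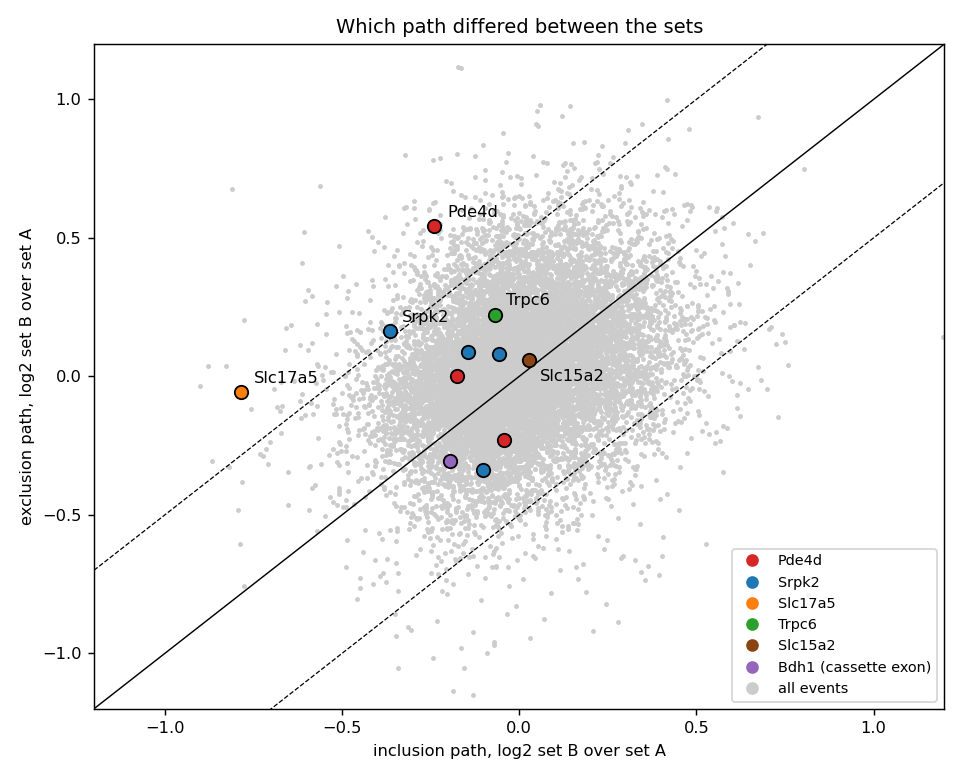
Log2 change from set A to set B of the inclusion path (horizontal) and of the exclusion path (vertical) for the 11 events of the 6 genes with an exclusion path (coloured) and all other such events (grey). On the solid line both paths change alike, the dashed lines mark an isoform ratio difference of 0.5, and 7 events beyond the axes are not drawn. *Slc17a5* lies far to the left at an inclusion change of -0.78, and *Pde4d* highest at an exclusion change of 0.54.

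The rule did not use the total intensity, the sum of exclusion and inclusion intensity, although it is built from the same path intensities. In the complex events of *Pde4d* and *Bdh1*, which have no exclusion path, the total was the leading path plus the shared comparator. The total was lower in set B for 9 of the 13 events and higher for 4, against 50.9% lower among all events. Events of *Pde4d* and of *Srpk2* overlap, and the genes were chosen with array values known, so nothing is read from this count. The complex event of *Bdh1* counts among the lower at -0.07, but the mean of its log2 intensities changed by 0.16. The sum of its 3 paths went from 1117 to 1146. For the complex event of *Pde4d*, counted lower at -0.12, the sum of the 4 paths was also lower, from 1000 to 888. The median log2 change of the total was -0.11 for the 13 events and -0.00 for all events. Among the 13 the change ranged from -0.29 for the *Bdh1* cassette exon to 0.30 for the *Pde4d* retained intron. None of the 13 was past 0.5 (0 of 13, against 0.811% of all events). In bulk brain RNA, fewer cells that express a gene and less RNA per cell cannot be told apart.

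Within *Pde4d* the total did not move one way. It changed by 0.30 at the retained intron and by -0.11, -0.08 and -0.12 at the alternative start, alternative end and complex event. In *Srpk2* the events changed by -0.17, -0.15, -0.13 and 0.02, so 3 of 4 were lower in set B. The totals of *Slc17a5* (-0.15), *Trpc6* (0.15) and *Slc15a2* (0.05) did not share a direction.

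Dimmer events differed more often past the threshold. Of all events whose lowest intensity was under 100, 10.5% were past the threshold, and the share was 7.97% from 100 to 150, 6.88% from 200 to 300 and 1.93% at 1000 or more. The lowest intensities of *Slc17a5* (90) and *Bdh1* (98) fell in the first class, those of the *Pde4d* intron (255) and the *Srpk2* start (249) in the class from 200 to 300. Among alternative ends with a lowest intensity under 150, which include *Slc17a5*, *Trpc6* (123) and *Slc15a2* (106), 3.58% were past the threshold.

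**Figure D4:**
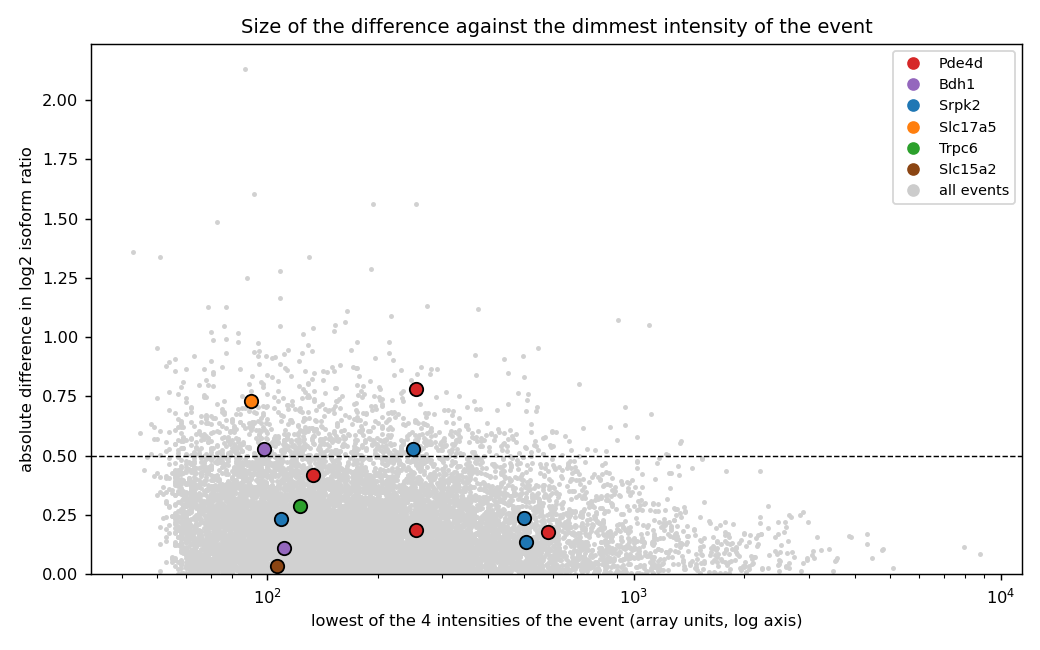
Absolute difference in log2 isoform ratio against the lowest of the 4 intensities of an event (array units, log axis), for the 13 events (coloured by gene) and all events (grey), with the threshold of 0.5 as a dashed line. The events of *Slc17a5* and *Bdh1* past the threshold lie at lowest intensities of 90 and 98, those of *Pde4d* and *Srpk2* at 255 and 249.

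The 6 genes were set beside the other genes that the study assayed for an intronic IAP. Of 40 such genes 19 were on the array, with 34 events. Past the threshold were 0 of these events, against 7.34% of all events, and 0 of these genes, against 11.7% of all genes. Their median absolute difference was 0.21, a little below the 0.24 of the 6 genes, and the differences ran from -0.48 to 0.49. The lowest was an alternative start of *Amph*, which encodes the synaptic protein amphiphysin, with exclusion intensities of 847 and 668 and inclusion intensities of 3941 and 4332. The highest was an alternative start of *Me3*, a mitochondrial malic enzyme, with 198 and 217 and with 506 and 394. Of the 33 events with an exclusion path 15 differed toward more exclusion in set B, against 55.3% of all such events. The total intensity was lower in 15 of 34, against 50.9% of all events. The 6 genes differ from this list in the count past the threshold, which is also what part of them was chosen on.

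**Figure D5:**
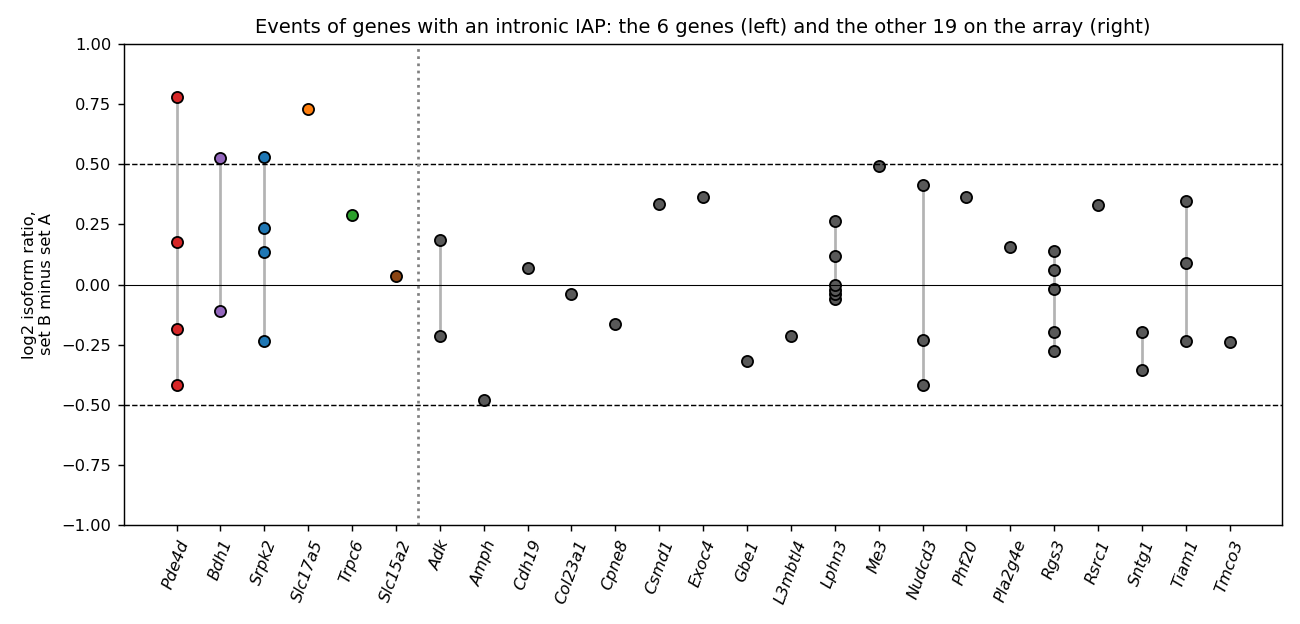
Difference in log2 isoform ratio, set B minus set A, of every event of the 6 genes (coloured, left of the dotted line) and of the other 19 genes with an intronic IAP on the array (grey, right). Each point is an event, grey lines join the events of a gene, and dashed lines mark 0.5 on either side. Of the grey points, *Me3* (0.49) and *Amph* (-0.48) come nearest to the dashed lines.

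Relatives of the 6 genes and partners in the same pathways gave a further comparison. Of 34 listed, 18 were on the array with 41 events. Past the threshold were 4 events in 3 genes, against 7.34% of all events and 11.7% of all genes. The list for *Pde4d*, which held the other *Pde4* genes and also *Pde4dip*, had 0 of 13 events past the threshold. Both retained introns of *Pde4a*, another cyclic AMP phosphodiesterase, differed toward less exclusion, by -0.48 and -0.45, opposite to the intron of *Pde4d*. The relatives of *Srpk2*, SR protein kinases and the related Clk kinases, had 0 of 9 events past the threshold and ranged from -0.49 to 0.19. The *Slc17* carriers had 0 of 6, and the single event of *Slc15a4* differed by 0.38.

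Among the TRPC channels, *Trpc2* and *Trpc4* had events past the threshold, while *Trpc6* had none. A cassette exon of *Trpc1* differed by -0.36, short of the threshold but also larger in size than the difference of *Trpc6* (0.29). In an alternative end of *Trpc2*, a pseudogene in humans and a pheromone channel in mice, exclusion went from an intensity of 767 in set A to 1333 in set B against inclusion intensities of 183 and 188, a difference of 0.76 with a total change of 0.68. An alternative 5' splice site of the same gene had exclusion intensities of 174 and 238 and inclusion intensities of 208 and 197, a difference of 0.53. In an alternative start of *Trpc4* the exclusion intensity was 370 and 411 and the inclusion intensity 896 and 614, a difference of 0.70. Beside *Bdh1*, a complex event of *Oxct1*, the enzyme that activates acetoacetate for use as fuel, had exclusion intensities of 122 and 208 and inclusion intensities of 1327 and 1400, a difference of 0.69. None of these relatives is among the genes listed with an intronic IAP, and differences as large as those of the 6 genes were thus also measured outside that list.

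On the chromosomes, *Bdh1* and *Slc15a2* lay 5.31 Mb apart on chromosome 16, and *Trpc6* and *Slc17a5* 69.7 Mb apart on chromosome 9. On chromosome 9 the total intensity of *Trpc6* was higher and that of *Slc17a5* lower in set B. On chromosome 16 the total of *Slc15a2* was higher (0.05) and those of the *Bdh1* events lower (-0.07 and -0.29). A link to position was not tested.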

How the data were processed

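RNA of 6 brains, 3 per genotype, was hybridized to 1 array each. The authors deposited 1 table with an exclusion and an inclusion intensity of each path in set A and in set B, summarized over the probe sets of a path and pooled over arrays. Affymetrix Power Tools is named in the submitters' processing notes, with no version. Array normalization and genome build are not given in the sources used here, so how they shaped the intensities is unknown. The paired and standard intensities were equal wherever both were listed. The table also holds the authors' separation scores and q-values of these comparisons, which were not used.

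Paths were joined into events by name. The value of an event was that of its exclusion path or, where it had none, of the path with the largest absolute difference. Differences were taken in log2 of the deposited intensities with no pseudocount and no filter on low intensities, and 115 paths without intensities were left out. The threshold was an absolute difference of 0.5. The calculation was tested on simulated data. All events of the 6 genes are named. Of the other genes with an intronic IAP the highest and the lowest are named, as none was past the threshold, and of the relatives those past it. The *Pde4a*, *Slc15a4* and *Trpc1* events were added after their values were seen. Members and lists were chosen with earlier results of these data known. Older symbols were matched through RefSeq synonyms. All 6 genes matched the RefSeq promoters (GRCm38.p6), 9 in all. Alternatives were a pseudocount of 50, centring, a minimum intensity of 100, other thresholds, the largest path of an event, and for total intensity the mean of log2 values. Python 3.11.15, numpy 2.4.6, pandas 2.3.3 and matplotlib 3.10.9 were used.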

Additional observations from a re-analysis of the deposited data

How the results depend on the processing

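Each isoform ratio and total intensity was recomputed under the alternatives, and 1 changed sign: the total intensity of the *Bdh1* complex event was -0.07 as a sum and 0.16 as the mean of the log2 intensities, both short of the threshold. The same side of the threshold was kept by 46 of 50 isoform ratio values and by 39 of 39 total intensity values. Part of this was fixed in advance. The minimum intensity only removes events, and the largest path has the same absolute difference as the value already used. Neither could therefore change an isoform ratio. The totals ran from -0.29 to 0.30, so their keeping to one side of 0.5 says little. With 50 added to each intensity, the differences were 0.41 for the *Bdh1* complex event, 0.47 for the *Srpk2* start and 0.50 for *Slc17a5*, all under the threshold, which left 1 of the 6 genes past it (*Pde4d*, 0.71) and 3.18% of all events. With the median over events subtracted, the *Srpk2* start was at 0.50, also under it, and 1 of the other genes with an intronic IAP, *Amph*, passed. With all 4 intensities at 100 or more, 2 of the 6 genes passed, since the leading events of *Bdh1* and *Slc17a5* have a dimmer path. At a threshold of 1, 0 of the 6 genes and 0.224% of all events passed, and at 0.3, 4 of the 6 genes, 10 of the other 19 genes with an intronic IAP and 26.0% of all events. No paired analysis was possible because the intensities are pooled to 1 value per set and the authors' own paired scores were not used, and for the same reason leaving out each pair in turn was not run. Without values per array, differences cannot be set against the spread between animals.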
